A study of Mus musculus with 26 samples.

Results

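The cells described here are neuronal-lineage cells caught in a sort for *Pdgfra* reporter fluorescence from the mouse spinal cord at embryonic day (E) 13.5. They were chosen by measured values. A well on chips 4, 7 or 8 was a member if it held at least 1000 molecules, at least 3 molecules summed over *Stmn2*, *Pou4f1*, *Tfap2b*, *Cntn2* and *Npy* (the neuronal sum), and under 3 molecules summed over *Col1a1*, *Col1a2*, *Col3a1*, *Lum* and *Dcn* (the collagen sum). These 10 genes are called rule genes, and their levels are a description of the choice. Of 209 wells with at least 1000 molecules on the 3 spinal cord chips, 51 were members, among 1514 wells of that depth on the 26 chips of the series. Chip 4 gave 27 members, chip 7 gave 13 and chip 8 gave 11.

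The series followed cells sorted for a *Pdgfra* reporter in embryonic and postnatal mouse brain and spinal cord, to ask how progenitors of the oligodendrocyte lineage change with age and region. Cells were caught on Fluidigm C1 chips of 96 wells, and RNA was counted by STRT-seq, which tags each captured mRNA molecule, so that a count is a number of molecules. The E13.5 groups used here were 3 spinal cord chips and 6 forebrain chips of heterozygous *Pdgfra*-H2BGFP knock-in embryos (C57BL/6NJ, both sexes), dissociated mechanically, with no treatment. Each chip counts as 1 replicate. The study's methods list the E13.5 spinal cord chips under 1 experiment, so these chips are not separate experiments. Nothing says that the chips of a group came from separate embryos, so p-values measure the spread between chips, which may be technical. In this line a histone-bound green fluorescent protein (GFP) is made from the *Pdgfra* locus (chromosome 5, 75152292 to 75198215 on GRCm38, plus strand). The tagged protein can outlast *Pdgfra* mRNA, so a sorted cell need not hold that mRNA, and 1 *Pdgfra* allele carries the reporter in every group used here.

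Neurons of the spinal cord arise from progenitors arranged along the dorsal to ventral axis, and leave the cell cycle as classes that differ in transcription factors, transmitter and axon path. Glutamatergic classes of the dorsal cord use factors such as *Tlx3*, inhibitory classes use *Pax2* with *Lhx1* and *Lhx5*, and *Pou4f1* and *Tfap2b* belong to dorsal programmes of both kinds. Position along the head to tail axis is written in the Hox genes, 4 clusters whose order on the chromosome follows the order of expression in the body. *Pdgfra* is known for marking oligodendrocyte precursors and mesenchymal cells, not neurons.

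The chips stood apart from each other in how cleanly the classes separated. On chip 4, 1 well passed both thresholds, with a neuronal sum and a collagen sum of at least 3, whereas 31 wells did so on chip 7 and 36 on chip 8. These 68 wells had a median neuronal sum of 9 molecules, a median collagen sum of 42 and a median of 6850 molecules, against 5141 in members. They are not members, and no doublet caller was run. Whether such wells held more than 1 cell, free RNA or cells of a mixed state was not tested. Depth also differed, since members had a median of 4137 molecules on chip 4, 6630 on chip 7 and 7088 on chip 8. No well name was on more than 1 chip and no pair of wells had identical counts. Values are therefore given by chip, and the fits are also given without chips 7 and 8.

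**Figure D1:**
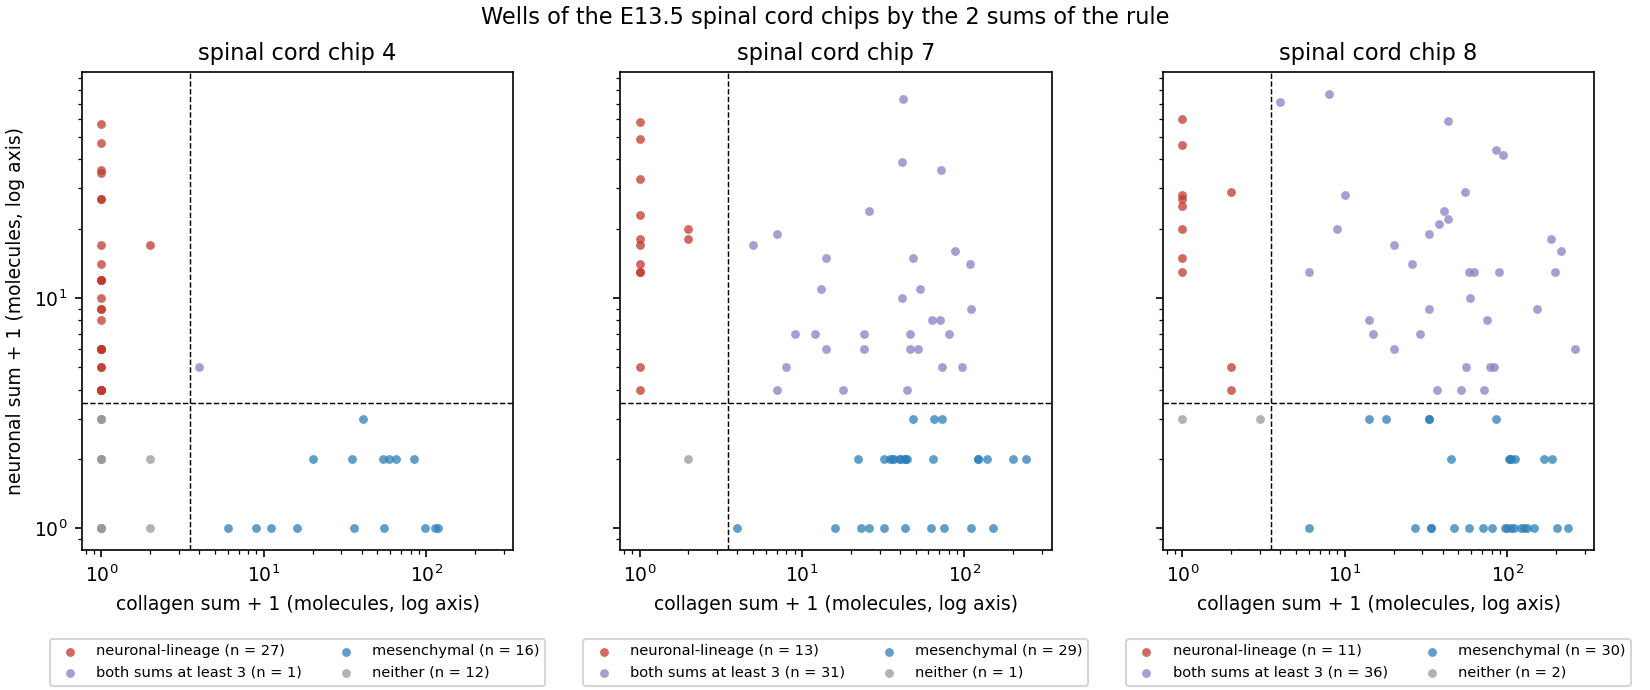
Each point is a well of at least 1000 molecules on spinal cord chip 4, 7 or 8, placed by its collagen sum plus 1 (x axis, molecules, log scale) and its neuronal sum plus 1 (y axis, molecules, log scale), with colours for the classes and dashed lines at the thresholds; overlapping points hide each other. Members fill the upper left corner of each chip, and the upper right corner, with wells of both sums, holds 1 well on chip 4, 31 on chip 7 and 36 on chip 8.

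Among the rule genes, *Stmn2*, which encodes a regulator of microtubules in growing axons, was found in 45 of 51 members and reached 3 molecules in 39. *Tfap2b* (chromosome 1, 19208914 to 19238576 on GRCm38, plus strand), a transcription factor of inhibitory dorsal neurons among others, was found in 26. *Pou4f1* (chromosome 14, 104461676 to 104467999, minus strand), a POU homeodomain factor of dorsal interneurons and sensory neurons, was found in 24. *Cntn2*, an axonal adhesion molecule of commissural neurons, was found in 23, and *Npy*, a neuropeptide, in 16, with up to 40 molecules in 1 cell. The median neuronal sum was 13 molecules, and 25 members held at least 3 of the 5 neuronal rule genes while 8 held 1 of them. The rule thus collected cells by different genes, and 12 members were below 3 molecules of *Stmn2*.

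At the lower edge of the rule, 7 members had a neuronal sum of exactly 3 molecules and a median of 1992 molecules in all. Each of the 7 held *Tubb3*, *Elavl3*, *Map1b* and *Sox11*. Just outside, 5 wells had a neuronal sum of 2, and each of those held *Tubb3*, *Map1b* and *Sox11* as well. At the collagen edge, 6 members had a collagen sum of 1 and 0 wells had a sum of 2, while 11 wells with a neuronal sum of at least 3 had a collagen sum of 3 to 10. The wells with a neuronal sum of 3 held 13044.1 CPM (molecules of a gene or list per 1000000 molecules of the cells) of the neuronal cytoskeleton list described next, those with a sum of 2 held 8329.7, and 10 wells with a sum of 0 or 1 and a collagen sum under 3 held 10987.2. The neuronal threshold thus left out wells with neuronal genes. *Sox11* and *Map1b* were also found in 72 and 60 of 75 mesenchymal cells.

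The label of a neuronal lineage was checked with genes outside the rule. All 16 genes of a list of neuronal cytoskeleton and RNA-binding genes were found, and each member held molecules of the list. Their summed level was 18531.6 CPM in the members of chip 4, 16455.2 on chip 7 and 15303.2 on chip 8. The mesenchymal cells of the same chips (collagen sum of at least 3, neuronal sum under 3, 75 cells) held 1451.5, 3508.7 and 2604.1 CPM. The lowest chip of the members was above the highest chip of the mesenchymal cells, and no test is given because the rule separated these classes. *Tubb3*, a tubulin of neurons, was found in 51 of 51 members and in 37 of 75 mesenchymal cells, whose median depth was 4995 molecules. *Map1b*, a microtubule-associated protein and the most abundant gene of the list, was found in 49 members, and *Dcx*, a microtubule protein of migrating neurons, in 47.

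Genes of the neurogenic programme and of the growing axon filled in the state of these cells. *Sox11* and *Sox4*, factors that switch on neuronal genes in young neurons, were found in each of the 51 members, and 12 of the 14 genes of the neurogenic list were found. The proneural factors that start neurogenesis were scarce, with *Neurog1* and *Neurod4* at 0 and *Neurog2* in 3 members. A count of 0 in 51 members allows a share of cells with a molecule of up to 5.88% (3 of 51), for counting error alone and not for the spread between chips. The summed level of the neurogenic list was 8514.8, 7681.5 and 6488.6 CPM on chips 4, 7 and 8, against 1944.6 CPM over the mesenchymal cells. All 10 genes of the synaptic release list were found, at 1100.4, 1030.8 and 965.8 CPM. Its most abundant gene, *Snap25*, a membrane fusion protein of synapses, had 56 molecules in 29 members.

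The 10 genes with the highest CPM ratio of members over mesenchymal cells (pseudocount 50 CPM, above 1 on each chip, rule genes left out) were *Sst*, *Stmn3*, *Gap43*, *Gng3*, *Tubb3*, *Tagln3*, *Pcp4*, *Rtn1*, *Mllt11* and *Elavl2*. *Sst*, which encodes the peptide somatostatin, led with a ratio of 16.7 over the pooled chips, but it was found in 15 members. Its ratio was 5.24, 20.4 and 30.5 on chips 4, 7 and 8, and on chip 4 it was the lowest of these 10 genes. *Stmn3*, a relative of *Stmn2*, had a pooled ratio of 12.9 from 44 members. *Gap43*, a protein of growth cones, was found in 38 members at 934.4, 1043 and 734.6 CPM on chips 4, 7 and 8. *Pcp4*, a regulator of calmodulin, came from 8 members. These ratios describe the classes that the rule made and carry no test.

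**Figure D2:**
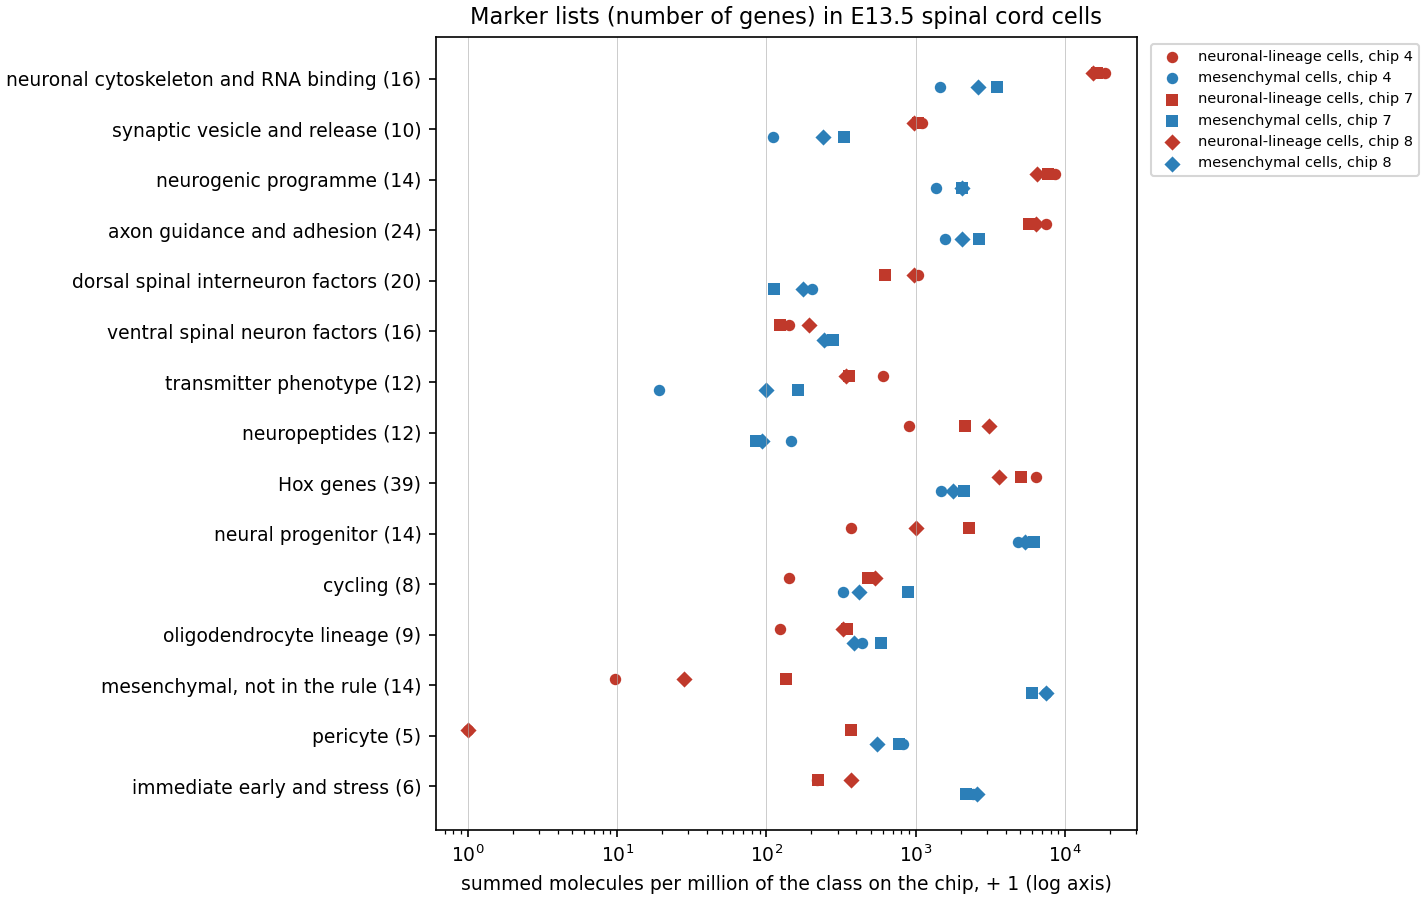
Each point gives the summed level of a list of marker genes on 1 chip, in CPM plus 1 (x axis, log scale), with red points for neuronal-lineage cells, blue points for mesenchymal cells, and the number of genes of each list in brackets; the rule separated these classes. The neuronal cytoskeleton list lies between 15303.2 and 18531.6 CPM in the members of the 3 chips, and the mesenchymal list outside the rule lies between 8.73 and 135 CPM.

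Axon guidance and adhesion genes were found broadly, 22 of 24, with *Slit1* and *Unc5d* at 0. Their summed level was 7423.1, 5730.5 and 6379.7 CPM in the members of chips 4, 7 and 8. The list includes the rule gene *Cntn2*, at 489.1, 257.7 and 394.5 CPM on these chips, so the count and the sums are in part a description of the choice. *Ncam1*, a neural adhesion molecule, was found in 48 members, and *Dcc*, a receptor for netrin that draws commissural axons to the midline, in 39, against 23 of 75 mesenchymal cells. *Robo3*, a receptor that lets commissural axons reach and cross the midline, was found in 12 members, with 74 molecules among them. *Robo3* was found in 11 mesenchymal cells, and after each cell was thinned to 1000 molecules it was found in 5 members and 5 mesenchymal cells. Its level was 349.3, 110.4 and 340.1 CPM in members of chips 4, 7 and 8, against 67.1 CPM over the mesenchymal cells.

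Of 20 dorsal interneuron factors, 10 were found. At least 1 of them was found in 39 of 51 members and in 35 of 75 mesenchymal cells. The rule chose cells by *Pou4f1* and *Tfap2b* among others, so dorsal neurons were favoured by the choice. *Tlx3*, which selects the glutamatergic fate, was found in 22 members, and 1 or both of *Lhx1* and *Lhx5* in 20. *Pax2*, which is needed for the inhibitory fate, was found in 15 members and in 3 of 75 mesenchymal cells. The corresponding counts of mesenchymal cells were 17 for *Tlx3* and 9 for *Lhx1* or *Lhx5*. *Isl1* was found in 4 members, *Pou4f2* in 8, *Pax8* in 6, *Lhx2* in 5 and *Barhl1* in 1. *Lbx1*, *Lmx1b*, *Prrxl1*, *Phox2a*, *Ptf1a*, *Lhx9* and *Barhl2*, which mark or specify particular dorsal classes, were at 0, as were *Gbx1*, *Wt1* and *Dmrt3*.

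Ventral factors were near absent. Of 16 ventral neuron factors 13 were at 0, among them *Evx1*, *En1*, *Sim1*, *Mnx1* and *Isl2*. *Gata3* was found in 1 member with 1 molecule, and *Nkx2-2* in 1 member with 2. *Foxp1*, which has uses far beyond motor neurons, was found in 12 members and in 40 of 75 mesenchymal cells. Factors of progenitor domains were as sparse, with 7 of 15 genes found and 15 molecules in 9 members, of which *Olig2* had 7. The dorsal list summed to 1039.2, 625.8 and 965.8 CPM on chips 4, 7 and 8, and to 588.4, 676.5 and 517.4 CPM in forebrain cells chosen by the same rule (chips 2, 3 and 6), which overlap. The ventral list summed to 139.7, 122.7 and 190.4 CPM in members, to 258.3 CPM over the mesenchymal cells and to 294.2, 607.1 and 238.8 CPM in the forebrain cells.

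Genes of glutamatergic and of inhibitory transmission were mostly found in different members. *Slc17a6* (chromosome 7, 51622006 to 51671119 on GRCm38, plus strand), which loads glutamate into vesicles, was found in 28 of 51 members and in 10 of 75 mesenchymal cells. At least 1 of *Gad1*, *Gad2* and *Slc32a1*, which make and load GABA, was found in 17 members and in 5 mesenchymal cells. Both sides were found together in 2 members, 1 on chip 7 and 1 on chip 8, and 8 members held neither. *Slc6a5*, the glycine transporter, was found in 1 member, and the cholinergic genes *Chat*, *Slc18a3* and *Slc5a7* were at 0, as were *Slc17a7*, *Th* and *Tph2*. Of the 22 members with *Tlx3*, 16 held *Slc17a6*, and of the 15 members with *Pax2*, 11 held a GABA gene and 13 held *Lhx1* or *Lhx5*. *Tlx3* and *Pax2* were found together in 6 members, 1 on chip 4, 3 on chip 7 and 2 on chip 8. These joint counts describe 51 cells of different depth, and cells of a chip share their source.

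Neuropeptides were concentrated in a minority of cells. *Sst* had 279 molecules in 15 members, and *Npy* had 213 molecules in 16. Both were found together in 11 members, on chip 8 in the same 5 cells. The level of *Sst* was 401.7 CPM on chip 4, 1104.4 on chip 7 and 1945.2 on chip 8, so the chips differed widely. *Tac1* was found in 2 members, *Gal* in 2, *Grp* in 3 and *Pnoc* in 1, whereas *Penk*, *Pdyn*, *Cck*, *Nts*, *Cartpt* and *Calca* were at 0.

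The members were next divided by *Pou4f1* and *Tfap2b*, each counted as present with at least 1 molecule. Over the 3 chips 13 cells held *Pou4f1* alone, 15 held *Tfap2b* alone, 11 held both and 12 held neither. On chip 4 the counts were 8, 11, 1 and 7, on chip 7 they were 2, 1, 6 and 4, and on chip 8 they were 3, 3, 4 and 1. Chips 7 and 8, where many wells passed both thresholds, thus also held 10 of the 11 cells with both factors, and their part in the joint counts was not tested. The counts that follow are from all molecules of a cell and carry no test. *Pax2* was found in 8 of the 15 cells with *Tfap2b* alone and in 1 of the 13 cells with *Pou4f1* alone, *Lhx5* in 7 and 1, *Gad1* in 6 and 0, and *Sst* in 7 and 1. In the other direction *Tlx3* was found in 8 of the 13 cells with *Pou4f1* alone and in 3 of the 15 with *Tfap2b* alone, and *Dcc* in 11 and 7.

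*Slc17a6* was found in 8 of 13 cells with *Pou4f1* alone and in 6 of 15 with *Tfap2b* alone, at 331.3 and 186.5 CPM. *Neurod1*, *Neurod2* and *Neurod6*, basic helix-loop-helix factors of young neurons, were found in 6, 6 and 7 cells with *Tfap2b* alone and in 1, 1 and 4 with *Pou4f1* alone. On chip 4, where a single cell held both factors, each of the 6 members with *Pax2* held *Tfap2b* and 0 held *Pou4f1*. On chip 7, 1 of 4 members with *Pax2* held *Tfap2b* and 2 held *Pou4f1*, and on chip 8 the counts were 5 and 3 of 5, so the chips differed. Median depth on chip 4 was 2903.5 molecules in the cells with *Pou4f1* alone and 5897 in those with *Tfap2b* alone, so fewer molecules lay behind each count of the former.

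The planned test of this division needed at least 5 cells of each kind on a chip, and chip 4 alone met that, so it could not be fitted with the chip as a covariate. With at least 1 cell of each kind on a chip, a choice made after seeing the data, edgeR's quasi-likelihood test over 3 chips called 0 of 429 genes after Benjamini-Hochberg adjustment, and 6 genes had an unadjusted p under 0.05. With at least 3 cells of each, also chosen after seeing the data, the same test over chips 4 and 8 called 6 of 433 genes. Of these, 4 were higher and 2 lower in cells with *Pou4f1* alone, and 0 of the 6 were called over 3 chips. Pooled over chips, *Sst* was at 612.8 CPM in cells with *Pou4f1* alone, from 1 cell, and at 629.4 CPM in cells with *Tfap2b* alone, from 7 cells. The counts of this division are therefore a description.

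**Figure D3:**
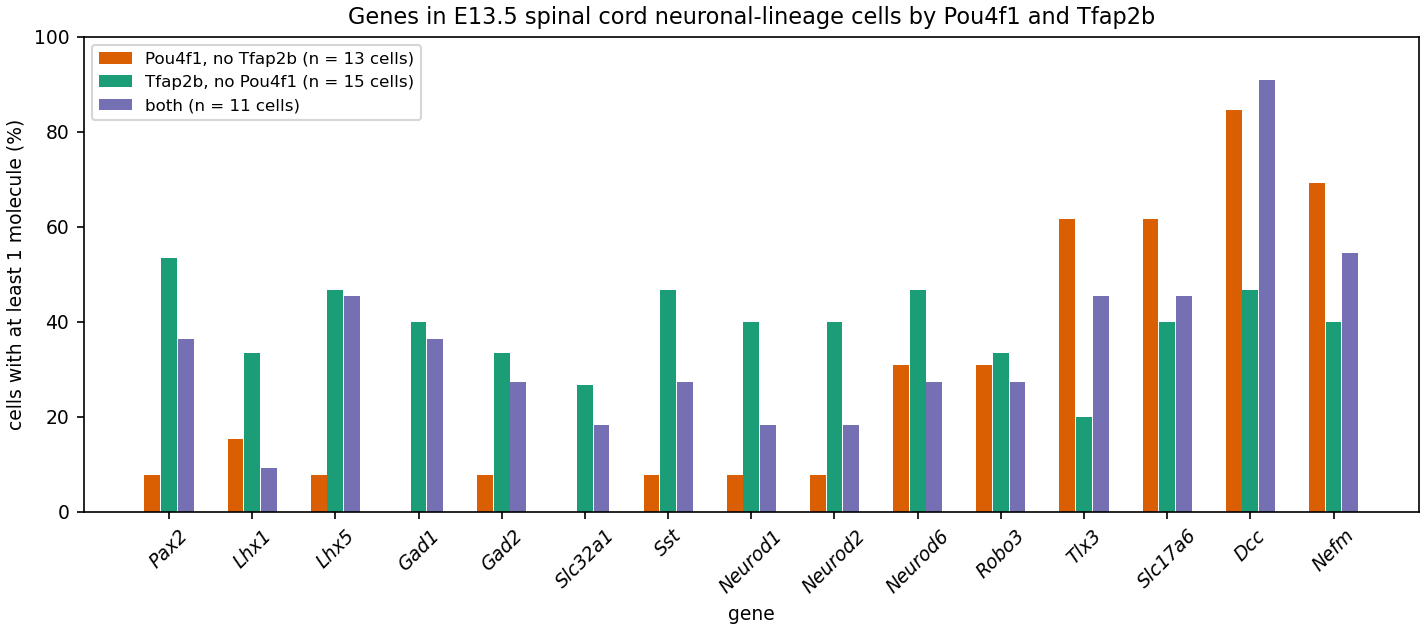
Bars start at 0 and give the percent of cells with at least 1 molecule of a gene (y axis) for members with *Pou4f1* alone (13 cells), *Tfap2b* alone (15 cells) and both (11 cells), with the 3 chips pooled and no error shown. The bars of *Pax2*, *Lhx5*, *Gad1* and *Sst* are taller for the cells with *Tfap2b* alone, and those of *Tlx3* and *Dcc* for the cells with *Pou4f1* alone, with no test and no thinning.

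Each of the 51 members carried at least 1 Hox gene, with a median of 10 and a maximum of 19 genes in a cell. Hox genes were not particular to members, since 73 of 75 mesenchymal cells of the same chips also carried at least 1. They summed to 6418.8, 5031 and 3632 CPM in members of chips 4, 7 and 8. In the mesenchymal cells of these chips they summed to 1469.6, 2102.6 and 1763.6 CPM. Of 39 Hox genes counted, 26 were found, with 1412 molecules, and 0 molecules came from paralogue groups 11, 12 and 13. The Hoxb cluster on chromosome 11 held 58.1% of the Hox molecules, Hoxa 26.6%, Hoxc 11.3% and Hoxd 3.97%. The highest paralogue group found in a cell was group 9 in 28 members, group 10 in 7, groups 5 to 8 in 13 and groups 1 to 4 in 3. *Hoxb9*, of group 9, was found in 28 members at 611.3, 662.6 and 530.5 CPM on chips 4, 7 and 8, and the 3 chips lay close together. *Hoxa5* ranged more, with 1152.8, 429.5 and 312.9 CPM, and chip 4 stood highest. Of group 10, *Hoxa10* was found in 7 members and *Hoxd10* in 1 member with 5 molecules. Hox genes of a cluster overlap in the annotation, for example *Hoxd3* with *Hoxd4* and *Hoxa3* with *Hoxa4* on GRCm38, and the counting could have split their molecules in ways not given in the sources used here.

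**Figure D4:**
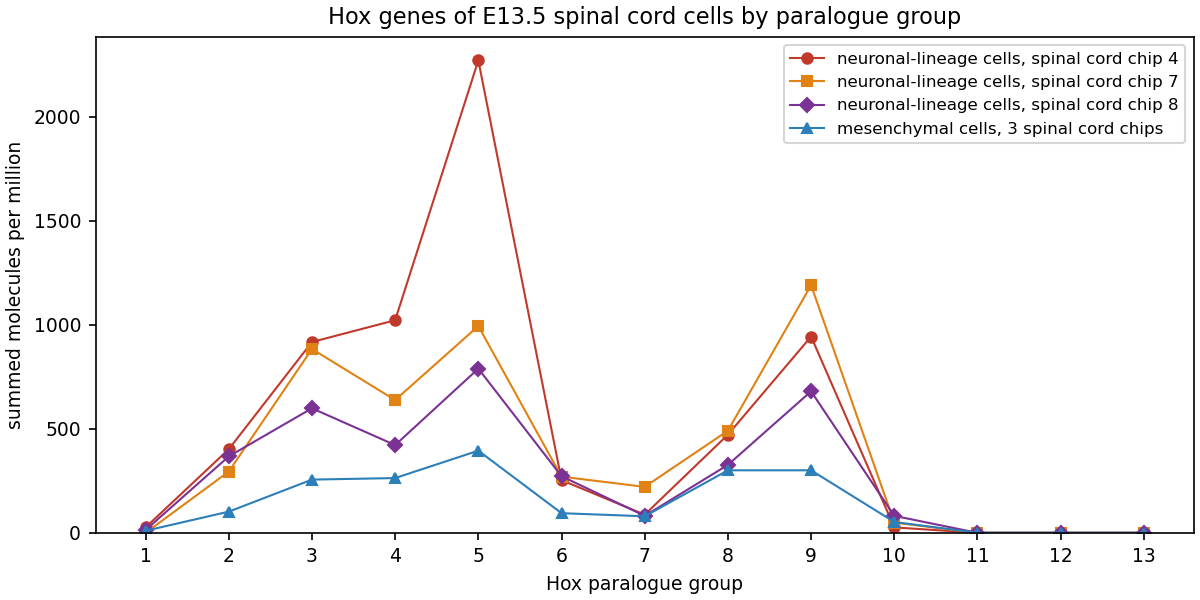
The summed level of the Hox genes of each paralogue group (x axis, group number; y axis, CPM, from 0) is shown for the members of chips 4, 7 and 8 and for the mesenchymal cells of the 3 chips together. Groups 3, 4, 5 and 9 are the 4 highest on each chip, and groups 11 to 13 are at 0.

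*Pdgfra* itself was found in 7 of 51 members, 3 on chip 4, 3 on chip 7 and 1 on chip 8, with at most 5 molecules in a cell. It was found in 52 of 75 mesenchymal cells. GFP reporter molecules were found in 4 members, 7 molecules in all, and in 18 mesenchymal cells, 23 in all. Each of the 7 members with *Pdgfra* also held *Tubb3*. Thus 44 members had been sorted by fluorescence with no *Pdgfra* molecule counted, at a median depth of 5141 molecules.

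A few members carried genes of dividing progenitors. Of 51 members 5 held at least 1 molecule of *Mki67*, *Top2a*, *Cdk1*, *Ccnb1*, *Ube2c* or *Birc5*, and of these 3 also held 66 to 71 molecules of the progenitor list, among them 30 to 42 of *Fabp7*, a lipid carrier of radial glia. These 3 cells, 2 on chip 7 and 1 on chip 8, each also held *Pdgfra* and *Olig1*, a factor of the oligodendrocyte lineage, with 7, 2 and 8 molecules of *Olig1*. The cell on chip 8 had a neuronal sum of 3, 1 molecule of *Tubb3* and 20 molecules of the cycling genes. Over all members, these 3 included, the progenitor list summed to 366.8 CPM on chip 4, 2282.4 on chip 7 and 1006.6 on chip 8, against 4808, 6216.6 and 5347.4 CPM in mesenchymal cells. The 8 genes of the wider cycling list summed to 139.7, 478.6 and 530.5 CPM, and its most abundant gene was *Pcna*, with 32 molecules. The 9 genes of the oligodendrocyte lineage list summed to 122.3, 343.6 and 326.5 CPM.

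Markers of most other cell types were low or at 0. Of 14 mesenchymal genes outside the rule 5 were found, with 14 molecules in 5 members, and the list summed to 8.73, 135 and 27.2 CPM on chips 4, 7 and 8, against 6874.3 CPM in mesenchymal cells. *Sparc*, found in 72 of 75 mesenchymal cells, was at 0 in the members. Pericyte genes came from 1 member on chip 7, with 21 molecules of *Rgs5* and 8 of the mesenchymal genes outside the rule. Endothelial, microglial and erythroid genes were at 0, with 4 of the 6 erythroid genes in the tables. The list of neural crest and Schwann cell genes summed to 78.6, 61.4 and 122.4 CPM, against 19.9 CPM over the mesenchymal cells. It was led by *Mbp* with 11 molecules, while *Sox10* was found in 1 member. Sensory ganglia lie beside the cord and share *Pou4f1* with it. Of the 12 genes of their list 5 were found, led by *Ntrk2* in 22 members and 30 mesenchymal cells, and *Runx1*, *Runx3*, *Prph*, *Avil* and *P2rx3* were at 0. That list summed to 358.1, 294.5 and 503.3 CPM, against 315.4 CPM over the mesenchymal cells. At least 1 of its genes was found in 35 members and in 51 mesenchymal cells.

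Immediate early and stress genes, which dissociation can raise, summed to 218.3, 220.9 and 367.3 CPM in members and to 2431.2, 2180.7 and 2583.5 CPM in the mesenchymal cells of the same chips. *Jun*, the most abundant of them, was found in 18 members and in 67 mesenchymal cells, and *Hspa1a* and *Hspa1b* were at 0 in the members.

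The members were compared with forebrain cells of the same age chosen by the same rule, to show which features differ by region. The rule found 52 cells on 6 brain chips, and chips 2, 3 and 6, with 9, 15 and 19 cells, met the minimum of 5 cells. When a neuronal sum of at least 5 was required, these chips kept 3, 5 and 13 cells, and spinal cord chips 4, 7 and 8 kept 20, 11 and 9. The 5 neuronal rule genes summed to 1601.7, 1648 and 1114.5 CPM in the brain cells and to 3283.6, 3337.7 and 3550.3 CPM in members. The brain cells thus lay nearer the threshold, and the part of this in the differences between regions was not tested. Members of the 3 spinal cord chips held more Hox, *Pax2*, *Tlx3* and *Slc17a6* molecules, and brain cells held more *Dlx1*, *Gad2* and *Sox2*. edgeR's quasi-likelihood test on the molecules summed per chip, with Benjamini-Hochberg adjustment over 1883 genes, called 49 genes (2.6%), 26 higher in spinal cord (1.38% of those tested) and 23 lower (1.22%). For each of the 49 genes the chips of the regions did not overlap, as they did not for 307 of the 1883 genes tested (16.3%). Of the 49, 41 passed the filter on low counts through the chips of 1 region alone, which by itself keeps the chips from overlapping. Of the 94 genes tested that passed in this way, 53 were not called. The well names carry sample number 137 on the spinal cord chips and 138 on these brain chips. Region thus cannot be told apart from whatever these numbers mark. Without chips 7 and 8, 58 genes were called, 32 of them among the 49, with chip 4 as the lone spinal cord sample and assumed to vary like the brain chips.

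The 5 largest fold bounds upward were of Hox genes. Of 39 Hox genes 8 passed the filter on low counts, and they passed through the spinal cord chips alone, since the 43 brain cells held 0 Hox molecules. A count of 0 in 43 cells allows a share of up to 6.98% (3 of 43), for counting error alone. A gene that passes in this way has chips that cannot overlap, so the 8 calls, beside 1.38% of all genes tested, are read no further than the levels. *Hoxa5* was at 1152.8, 429.5 and 312.9 CPM on the spinal cord chips and at 0 on each brain chip, at least 50.3-fold higher against a floor of 3 molecules over the brain group. *Hoxb5* was at 978.1, 466.3 and 408.1 CPM, at least 47.6-fold higher, and *Hoxb3* at 689.9, 760.8 and 367.3 CPM, at least 44.4-fold higher. *Hoxb9* was at least 43.1-fold higher and *Hoxb4* at least 21.4-fold. *Hoxb2*, *Hoxb6* and *Hoxb8* were the other 3.

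Forebrain factors differed the other way. Of 22 genes on that list, 18 were at 0 in the members, and of the 10 that were tested 8 were lower and 1 was higher in spinal cord, beside 1.22% and 1.38% of all genes tested. The 8 lower genes were at 0 in the members and passed the filter through the brain chips alone, so their calls likewise add nothing to the levels. *Dlx1*, a factor of ventral forebrain neurons, was at 294.2, 381.6 and 501.5 CPM on brain chips 2, 3 and 6, at least 39.5-fold lower in spinal cord, and *Lhx6*, which acts in interneurons of the medial ganglionic eminence, at 523, 208.2 and 477.6 CPM, both at 0 in the members. *Dlx6os1*, an RNA antisense to *Dlx6*, was at 196.1, 468.4 and 318.4 CPM in brain. Use of strand in the counting is not given in the sources used here, so its molecules and those of *Dlx6* cannot be told apart. *Dlx2*, *Dlx5* and *Six3* were also at 0 in the members.

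*Neurod6* was the gene of the forebrain list that went up. It was at 375.5, 171.8 and 204 CPM on spinal cord chips 4, 7 and 8 and at 0, 0 and 15.9 CPM on brain chips 2, 3 and 6, with a log2 fold change of 4.51 ± 0.74 (SE, n = 3 and 3 chips; adjusted p = 0.000686, edgeR). The gene passed the filter through the spinal cord chips alone, so separation of its chips is no result. It was found in 15 members and in 8 mesenchymal cells. *Zic1*, a zinc finger factor of dorsal neural tissue, was found in 42 members and was not called, with 1344.9, 1325.3 and 1142.6 CPM in spinal cord and 849.9, 867.3 and 421.9 CPM in brain.

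Of the dorsal factors 3 were tested. *Pax2* and *Tlx3* were called, but both passed the filter through the spinal cord chips alone, so the calls are read no further. *Pax2* was at 296.9, 147.3 and 244.9 CPM on the spinal cord chips and at 0 in brain, at least 16.9-fold higher. *Tlx3* was at 262, 171.8 and 204 CPM and at 0 in brain, at least 15.6-fold higher. *Isl1*, a LIM homeobox factor of sensory, motor and some forebrain neurons, was at 69.9, 24.5 and 204 CPM in spinal cord and at 326.9, 260.2 and 390.1 CPM in brain, and did not pass (adjusted p = 0.065, edgeR). Of the ventral list *Foxp1* was tested and not called.

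Levels of transmitter genes differed in both directions. *Slc17a6* passed the filter through the spinal cord chips alone and *Gad2* through the brain chips alone, so for them separation of the chips is no result. *Slc17a6* was at 305.7, 208.6 and 149.6 CPM on spinal cord chips and at 0, 17.3 and 31.8 CPM on brain chips, with a log2 fold change of 3.15 ± 0.63 (SE, n = 3 and 3; adjusted p = 0.00496, edgeR). With chip 4 left out its adjusted p was 0.155 in the same test. In the other alternatives in which it passed the filter the call was kept, which for such a gene is no measure of robustness. *Gad2* was at 104.8, 61.4 and 81.6 CPM in spinal cord and at 326.9, 399 and 270.7 CPM in brain, a log2 fold change of -2.02 ± 0.42 (adjusted p = 0.0073, edgeR). Its call was lost with chip 7 left out (adjusted p = 0.0506, edgeR) and with chips 7 and 8 left out (adjusted p = 0.736, edgeR). *Sst* was tested and not called, and its chips overlapped between the regions.

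Genes of the shared neuronal state were called in numbers too small to set against the 2.6% called over all genes. Of 16 cytoskeletal genes tested, *Ina*, a neuronal intermediate filament, was higher, with 978.1, 711.7 and 857 CPM against 359.6, 433.7 and 207 CPM (log2 fold change 1.33 ± 0.35, adjusted p = 0.0437, edgeR). The median log2 fold change of the 16 was 0.12, beside -0.02 over all genes tested. *Tubb3* was at 2192, 2294.6 and 1632.3 CPM in spinal cord and at 1797.9, 2151 and 2029.9 CPM in brain, and the chips overlapped. None of 4 synaptic genes and none of 13 axon guidance genes tested was called. Of 4 neurogenic genes tested *Nhlh2*, a helix-loop-helix factor of early neurons, rose in spinal cord by 2.52 ± 0.59 on the log2 scale (adjusted p = 0.0192, edgeR). *Nhlh2* passed the filter through the spinal cord chips alone, so separation of its chips is no result.

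Of 5 progenitor genes tested, 2 were called lower in the spinal cord cells, *Sox2* and *Hes5*. Both passed the filter through the brain chips alone, as did 48 genes tested, of which 17 were called, so this count says nothing of the list. *Vim*, *Dbi* and *Fabp7* were not called. The list summed to 2255.5, 2445.9 and 4513.6 CPM on brain chips 2, 3 and 6, and spinal cord chip 7, at 2282.4 CPM, lay among them. *Sox2*, which keeps neural stem cells in their state, was at 8.73, 61.4 and 13.6 CPM against 359.6, 433.7 and 493.6 CPM in brain, a log2 fold change of -4.06 ± 0.54 (adjusted p = 7.52e-05, edgeR). *Hes5*, a target of Notch, was at 78.6, 85.9 and 68 CPM against 261.5, 156.1 and 334.3 CPM in brain. *Jun* was lower as well, with 87.3, 110.4 and 217.6 CPM against 392.3, 503.1 and 310.5 CPM. The immediate early and stress list that holds it summed to 218.3, 220.9 and 367.3 CPM in members and to 784.5, 745.9 and 429.9 CPM in brain, without overlap. Any part of dissociation in the regional differences was not tested. *Neurod6*, *Slc17a6*, *Gad2*, *Sox2*, *Hes5* and *Nhlh2* are among the 41 genes that passed the filter through 1 region alone, so for them separation of the chips is no result. With no filter the calls of *Neurod6*, *Slc17a6*, *Gad2*, *Sox2* and *Nhlh2* were kept, and that of *Hes5* was lost. The calls of *Ina*, *Hes5*, *Jun* and *Nhlh2* were lost under several alternatives. *Sox2* and *Neurod6* were among 31 genes called with each of the 6 chips left out in turn. Their kept calls are no measure of robustness, since both passed the filter through 1 region alone. The genes tested on the cycling and sensory lists, 1 of each, were not called, and no gene of the progenitor domain, neural crest, oligodendrocyte, mesenchymal, pericyte, endothelial, microglial or erythroid lists passed the filter on low counts.

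Outside the lists, *Ebf3* and *Ebf2*, factors of neurons that have just left the cell cycle, were called higher in spinal cord and are named here after their values were seen. *Ebf3* was at 960.6, 932.6 and 802.6 CPM in spinal cord and at 32.7, 86.7 and 39.8 CPM in brain. *Ebf2* was at 401.7, 417.2 and 272.1 CPM and at 32.7, 0 and 23.9 CPM. In the spinal cord *Ebf3* was also found in 40 of 75 mesenchymal cells, beside 37 of 51 members. *Pcp4* was higher too, at 358.1, 171.8 and 380.9 CPM against 98.1, 0 and 7.96 CPM. These 3 genes also passed the filter through the spinal cord chips alone.

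**Figure D5:**
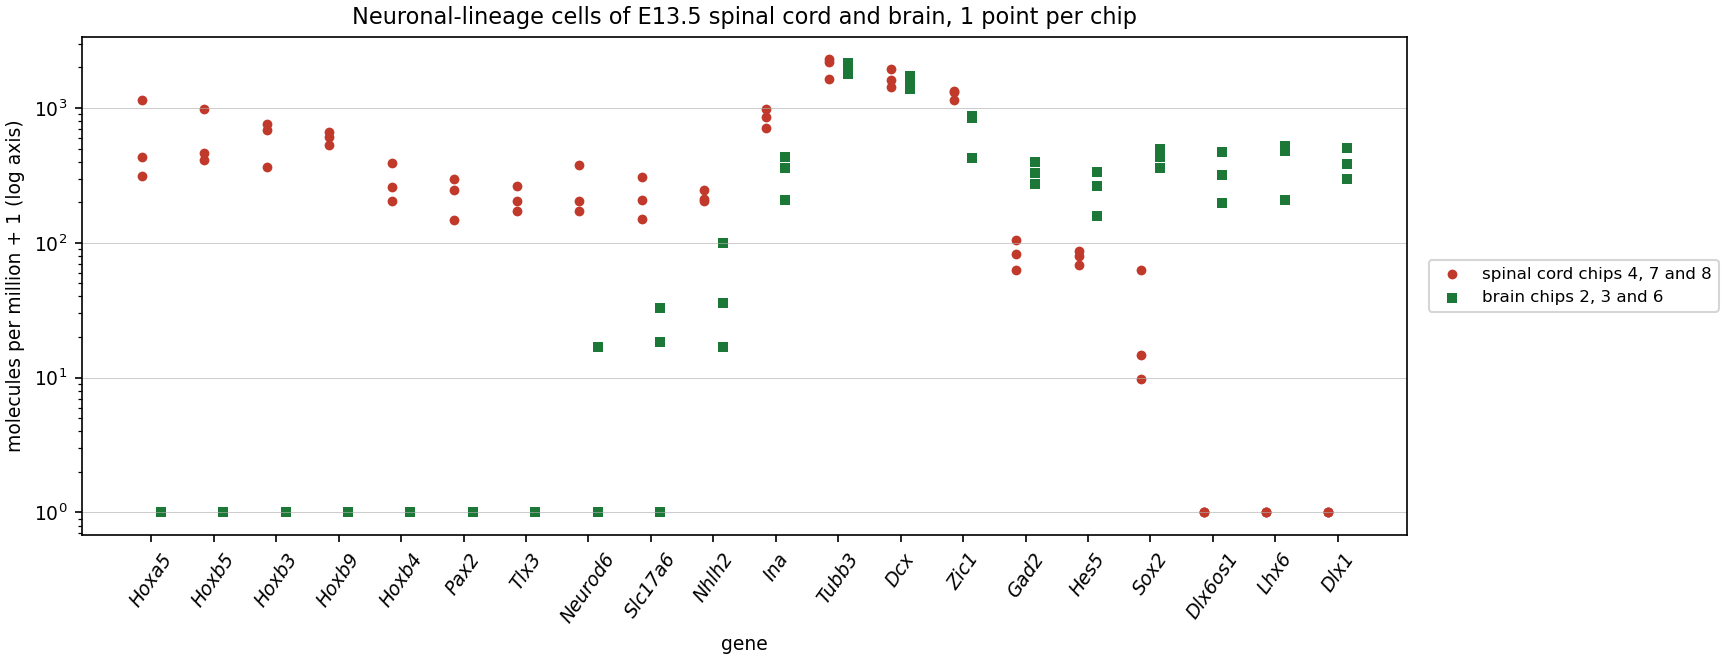
Each point is 1 chip, with the level of a gene in its neuronal-lineage cells in CPM plus 1 (y axis, log scale) for spinal cord chips 4, 7 and 8 (circles) and brain chips 2, 3 and 6 (squares). Hox genes, *Pax2* and *Tlx3* are at 0 on the brain chips, *Dlx1*, *Lhx6* and *Dlx6os1* are at 0 on the spinal cord chips, and *Tubb3* and *Dcx* overlap.

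A further fit asked whether regional differences of the members were the same as those of the mesenchymal cells on the same chips. Of 3325 genes tested, 26 had an interaction of region and cell class (0.782%; edgeR, Benjamini-Hochberg), 3 with a higher and 23 with a lower value for spinal cord neuronal-lineage cells than the other classes predicted. Genes at 0 in both classes of a region, such as *Hoxa5* and *Dlx1*, have no interaction that can be estimated. *Sst* led the higher genes. In members it was at 401.7, 1104.4 and 1945.2 CPM and in spinal cord mesenchymal cells at 36.3, 6.51 and 15.5 CPM. In brain neuronal-lineage cells it was at 588.4, 1439.8 and 334.3 CPM and in brain mesenchymal cells at 228.8, 249 and 160.8 CPM. The log2 interaction was 4.61 ± 0.72 (SE, adjusted p = 1.48e-07, edgeR), with the classes farther apart in spinal cord. The rule gene *Npy* was held by each of the 3 and 5 members with *Sst* on chips 7 and 8, and by 3 of 7 on chip 4. Wells with at least 3 *Npy* molecules were also kept out of the mesenchymal class. The part of the rule in the gap in *Sst* was not tested, so that gap is given as a description. *Gap43* (2.52 ± 0.64) and *Ptn*, a growth factor of neural and mesenchymal tissue (2.08 ± 0.54), were the other 2.

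Of 11 genes tested on the mesenchymal list outside the rule, 1 was among the 23 lower genes, *Sparc*. *Sparc*, a matrix protein, was at 0 in the members and at 2394.9, 1959.4 and 2021.4 CPM in the mesenchymal cells of chips 4, 7 and 8. In brain it was at 32.7, 121.4 and 127.4 CPM in neuronal-lineage cells and at 1087, 1245.1 and 1181.2 CPM in mesenchymal cells. *Igfbp5*, which binds insulin-like growth factors, was at 17.5, 61.4 and 40.8 CPM in members against 3283.9, 2538.7 and 3228.1 CPM in mesenchymal cells. In brain it was at 0, 364.3 and 111.4 CPM in neuronal-lineage cells and at 57.2, 398.4 and 105.4 CPM in mesenchymal cells, so spinal cord mesenchymal cells alone stood high (log2 interaction -6.32 ± 0.69, adjusted p = 1.39e-16, edgeR). *Sulf1*, *Mmp14* and *Bmp7* were at 0 in the members and were the other 3 of the 5 lowest. For genes at 0 in the members the size of the interaction depends on the fit's prior count. Of 12 genes tested on the progenitor list 3 were lower, *Hes1*, *Vim* and *Notch1*, beside 0.692% of all genes tested. The whole list summed to 1120.5 CPM in members and to 5605.2 CPM in spinal cord mesenchymal cells. An interaction does not say which class differs between regions, and this was not tested for the 3 genes.

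Collagen differed between the classes that entered this fit. The 5 collagen rule genes summed to 8.73, 24.5 and 40.8 CPM in members and to 163.4, 104.1 and 47.8 CPM in brain neuronal-lineage cells of chips 2, 3 and 6, and the part of that difference in the 23 lower genes was not tested. The count of 26 fell to 11 when spinal cord chip 8 was removed, to 15 for chip 4 and to 16 for brain chip 6. A set of 9 genes, *Sst*, *Sparc*, *Igfbp5* and *Hes1* among them, stayed called with each chip left out in turn. Without chips 7 and 8 the count was 12, with *Sst* not called.

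Shares of cells were compared over chips after each cell was thinned to 1000 molecules, which left out no cell. *Slc17a6* was found in 25.9%, 38.5% and 9.09% of members on chips 4, 7 and 8 and in 0%, 0% and 5.26% of brain cells on chips 2, 3 and 6. The means were 24.5% ± 14.7 and 1.75% ± 3.04 (SD, n = 3 and 3), and the chips did not overlap (two-sided exact permutation p = 0.1, the smallest that 3 against 3 chips can give; 0.2 adjusted over the 4 shares). With members chosen by *Stmn2* alone or by a neuronal sum of at least 5 the chips overlapped (exact permutation p = 0.4 and 0.6). At least 1 of *Gad1*, *Gad2* and *Slc32a1* was found in 14.8%, 0% and 27.3% of members and in 33.3%, 60% and 36.8% of brain cells, also without overlap (exact permutation p = 0.1, adjusted 0.2). On chips 4, 7 and 8 together, 1 thinned mesenchymal cell held *Slc17a6* and 0 held a GABA gene. On brain chips 2, 3 and 6, a GABA gene was found in 3 of 14, 1 of 6 and 4 of 29 thinned mesenchymal cells, and *Slc17a6* in 0. The shares of brain cells with a GABA gene thus stand on a higher background than those of members. No share could reach the threshold in this design.

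*Pdgfra* was found in 8.83% ± 7.94 of thinned members and in 5.46% ± 5.56 of thinned brain cells (SD, n = 3 and 3 chips; exact permutation p = 0.8, adjusted 0.8), and the chips overlapped. A cycling gene was found in 9.39% ± 5.85 and 20.4% ± 13.3 (exact permutation p = 0.3, adjusted 0.4). With members chosen by *Stmn2* alone this direction turned, at 7.31% and 4.44%, and with a neuronal sum of at least 5 the means were 7.73% and 7.69%. Without thinning the means were 55.5% and 7.49% for *Slc17a6*, 37.1% and 72.3% for the GABA genes, 14.4% and 7.21% for *Pdgfra*, and 12% and 47.6% for a cycling gene.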

How the data were processed

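Per the labels and the methods of the study, single cells were caught on Fluidigm C1 chips and prepared by STRT-seq. The deposited tables hold raw molecule counts for 24341 gene symbols in each well, and no normalization had been applied. The submitters' processing notes name build mm10; aligner and annotation are unknown here. Gene positions came from the GENCODE annotation of GRCm38 and were not used for counting.

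The 37 mitochondrial, 100 spike-in and 9 marker rows were left out of molecule totals. The members and lists were chosen with earlier results of these data known. Wells were summed per chip, 5 cells at least, and tested with edgeR's quasi-likelihood test (TMM, filterByExpr, Benjamini-Hochberg, threshold 0.05). Rule genes stayed in the fits and are given without a test. Shares were compared by two-sided exact permutation tests. Shares of members with a molecule have exact binomial 95% intervals in the tables, and folds against 0 use a floor of 3 molecules over the group. No doublet caller was run. Members of different chips differed beyond counting noise (chi-square per degree of freedom 1.65 to 2.22). This measure leaves out the spread between cells of a chip, so it does not show a difference between chips. The region and interaction fits were also run on simulated counts, whose outcome is not given here and is used for no result. A gene that a fit did not call is not shown to be unchanged.

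Totals over wells of at least 1000 molecules were 192356, 422670 and 551485 on spinal cord chips 4, 7 and 8. Members held 269515 molecules and the brain cells of the fit 213859.

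Genes named are those of the lists, the Hox genes, the 5 called genes of largest change in each direction whose chips did not overlap (for the interaction, of largest size), and the 10 of highest ratio within spinal cord; others are said to be chosen after their values were seen. Some genes that this rule or the lists include are not reported here. Chip 9, titled P7, carries in its well names the sample number of the E13.5 spinal cord chips, of which the study's methods count 4 and the titles 3. Groups were taken from the titles, and chip 9 entered no comparison. Alternatives were DESeq2, other size factors, no filter, each chip left out, thinning to 1000 molecules, and other rules for members. Fits ran in edgeR 4.0.16 and DESeq2 1.42.0 under R 4.3.3. Counts, shares and plots ran in Python 3.11.15, using scipy 1.17.1, pandas 2.3.3, matplotlib 3.10.9 and numpy 2.4.6. The random seed was 1.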

Additional observations from a re-analysis of the deposited data

Results flagged for a closer look

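Regional differences of neuronal-lineage cells and of mesenchymal cells differed for 26 genes in edgeR's interaction test. The log2 interactions of the named genes were 4.61 for *Sst*, 2.52 for *Gap43*, 2.08 for *Ptn*, -7.27 for *Sparc*, -6.61 for *Sulf1*, -6.32 for *Igfbp5*, -6.12 for *Mmp14* and -6.04 for *Bmp7*. Values of the 4 genes at 0 in the members depend on the fit's prior count and are no bounds. Of 15 members with *Sst*, 11 also held the rule gene *Npy*, and the part of the rule in the interaction of *Sst* was not tested.

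Signals also appeared in data that no comparison used. Chip 9, which has a P7 title while the study's methods count 1 more E13.5 spinal cord chip than the titles do, held 21 neuronal-lineage wells and 34 wells with both sums of at least 3, among 78 wells of at least 1000 molecules. The GFP reporter row, which was left out of molecule totals, gave 7 molecules in members. On chips of postnatal day 7, 4 wells met the rule among 934 wells of at least 1000 molecules. No chip of the E13.5 brain stood outside its group in its share of neuronal-lineage wells, and groups of 3 chips were too small for that check.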

How the results depend on the processing

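For spinal cord against brain cells the 49 calls became 79 with DESeq2 (45 higher, 34 lower), 126 with no filter, 38 with a neuronal sum of at least 5, 35 with *Stmn2* alone, 42 with a collagen sum of 0, 2 after thinning to 1000 molecules, when 140 genes were left to test, and 42 to 73 with each chip left out in turn; 58 were called without spinal cord chips 7 and 8, an alternative chosen after seeing the data. DESeq2 kept 45 of the 49. The 26 interactions became 11 with DESeq2, 13 with a neuronal sum of at least 5, 16 with *Stmn2* alone, 6 after thinning, 11 to 23 with each chip left out, and 12 without chips 7 and 8. The split by *Pou4f1* and *Tfap2b* gave 0 calls with at least 1 cell and 6 with at least 3; no further setting of that split was run, because at least 5 cells of each kind were on 1 chip alone. Of the 4 shares, differences kept their sign except for cycling genes, where spinal cord minus brain was 2.87 percentage points with *Stmn2* alone and 0.035 with a neuronal sum of at least 5. The cause was not tested. Of 366 alternative values for 27 genes of the region test, 329 kept their call, 37 lost it and 0 changed sign. Of the 49 called genes, 41 had passed the filter through 1 region alone, so kept calls of such genes are no measure of robustness. For 8 genes of the interaction, 71 of 115 alternative values kept the call and 44 lost it. Other member rules and left-out chips, chosen after seeing the data, left 48 of 48 shares of members with a gene within the binomial interval of the main value. These intervals are wide and treat pooled cells as independent, and the alternatives reuse many of the same cells. That count therefore does not show stability. No paired analysis was possible because the E13.5 spinal cord and brain chips share no replicate number; classes and cells of the same chip were fitted with the chip as a covariate.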

Other observations

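Chip 9 carries sample number 137 in its well names, as the spinal cord chips of E13.5 do, and a label of a later stage. Its 21 wells that met the rule had a median of 9881 molecules. They held *Slc17a6* in 15, *Tlx3* in 11, *Tfap2b* in 11, *Pou4f1* in 8, *Pax2* in 7 and a GABA gene in 4, and 2 wells held both transmitter sides. Their Hox genes summed to 4348.3 CPM and the neuronal cytoskeleton list to 17476.4 CPM. On that chip 5 of the 7 wells with *Pax2* held *Pou4f1* and 3 held *Tfap2b*, whereas on chip 4 the counts were 0 and 6 of 6.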
